A study of Mus musculus with 12 samples.

Results

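Focal adhesions are the plasma membrane sites at which integrins, bound to the extracellular matrix outside the cell, are coupled to actin filaments inside it. Talin and kindlin bind the integrin tail, vinculin reinforces the link from talin to actin, and a complex of integrin-linked kinase, PINCH, and parvin joins the tail to actin by a further route. Paxillin, focal adhesion kinase, zyxin, and filamin organize signaling and the filaments at these sites, which carry wall stress between the elastic laminae and the contractile apparatus of aortic smooth muscle cells (SMCs). The transcripts described here are the 10 genes *Tln1*, *Vcl*, *Fermt2*, *Ilk*, *Lims1*, *Parva*, *Pxn*, *Ptk2*, *Zyx*, and *Flna*, found by symbol among 52636 rows of the deposited count table and not by their values. Each of the 10 symbols matched 1 protein-coding gene, and all 10 passed edgeR's filter on low counts.

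The libraries are bulk RNA-seq of viable GFP+ SMCs sorted from 6 male mice on the C57BL/6J background at 12 weeks of age. GFPiSMC mice (3 animals) carry the tamoxifen-inducible Myh11-CreERT2 transgene and the mT/mG reporter with intact receptors, whereas Tgfbr1/2iSMCKO mice (3 animals) carry in addition floxed alleles of *Tgfbr1* and *Tgfbr2*. Both genotypes received tamoxifen for 5 days. The labels list a schedule of 1 mg/d at 4 weeks and another of 2 mg/d at 11 weeks of age, and by the study's methods the sorted SMCs were profiled 1 week after receptor disruption, which is the 11-week schedule. Cre is active only in cells with an active *Myh11* promoter, and the mouse line and the receptor deletion cannot be told apart in this design. The ascending aorta with the arch and the descending thoracic aorta of each animal gave 1 library each, so that the 12 libraries form 4 groups of 3. The number of animals and the pairing of segments were read from the numbers in the library titles.

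Total counts per library ranged from 20467027 to 31392396, and the labels give 9208 to 20000 sorted cells per library. Levels are given as CPM (counts scaled by library size and TMM factor). The sum of 6 SMC markers was 39636 to 47523 CPM in GFPiSMC and 33588 to 42570.5 CPM in Tgfbr1/2iSMCKO libraries. Of these 6 markers, 3 had positive log2 fold changes between genotypes, with a list median of 0.01. In contrast, 7 endothelial, 8 fibroblast, and 7 leukocyte markers summed to at most 105, 242, and 59.0 CPM. The sum of 8 erythroid and platelet markers was 103 CPM in the descending library of GFPiSMC replicate 3 and 1.72 to 21.5 CPM in the other 11, and its part in the results was not tested. None of the tested SMC, leukocyte, erythroid and platelet, adipocyte, or Schwann cell markers passed the test between genotypes. The filter on low counts left 6 of 7 leukocyte, 5 of 8 erythroid and platelet, 1 of 3 adipocyte, and 1 of 3 Schwann cell markers. Of the other marker lists, only *Serpinf1* (fibroblasts, lower in Tgfbr1/2iSMCKO SMCs) and *Cdh5* (endothelial cells, higher) passed. Opposite to *Serpinf1*, 5 of 8 fibroblast markers had positive log2 fold changes, with a list median of 0.31. *Cdh5* was scarce, with means of 0.17 CPM in GFPiSMC and 1.26 CPM in Tgfbr1/2iSMCKO libraries. Positive values were found for 6 of 7 endothelial markers. The exception was *Pecam1*, the most abundant of them (79.3 and 72.5 CPM, log2 fold change -0.13). A list of 9 immediate early and heat shock genes, which rise on cell dissociation, summed to 380 to 1439 CPM in GFPiSMC and 228 to 905 CPM in Tgfbr1/2iSMCKO libraries, with none past the test and a median log2 fold change of -0.89. The part of this list in the results was not tested. The targeted genes were at 235 ± 35.3 CPM (*Tgfbr1*) and 106 ± 13.3 CPM (*Tgfbr2*) in GFPiSMC libraries and at 251 ± 33.0 and 89.0 ± 12.5 CPM in Tgfbr1/2iSMCKO libraries (mean ± SD, n = 6 libraries each), with log2 fold changes of 0.10 (SE 0.12, adjusted p = 0.790, edgeR) and -0.26 (SE 0.11, adjusted p = 0.233). These counts cover whole genes, exons outside a floxed part included, and do not check the deletion.

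The question of the first comparison was whether SMCs without TGF-β receptors hold less or more of these transcripts. Over the 12 libraries, with segment as a covariate, *Vcl* was the only member to pass an adjusted p of 0.05 in edgeR, and it was lower in Tgfbr1/2iSMCKO SMCs. That is 1 of 10 members against 3.23% of the 22320 genes tested that were lower, and 0 members were higher against 1.8% of genes. The log2 fold change was negative for 8 members, and *Tln1* and *Ilk* were the exceptions. With scaling by library size only, *Lims1* also turned positive (0.03) and *Vcl* missed the threshold (-0.34, adjusted p = 0.104), as it did among genes with at least 50 counts on average (-0.45, 0.0606). The median log2 fold change of the members was -0.27, compared with 0.04 over all genes tested and -0.03 over the 4675 genes averaging 1000 counts or more, of which 8.36% were lower. In bulk RNA, fewer cells with a transcript and less of it per cell cannot be told apart.

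**Figure D1:**
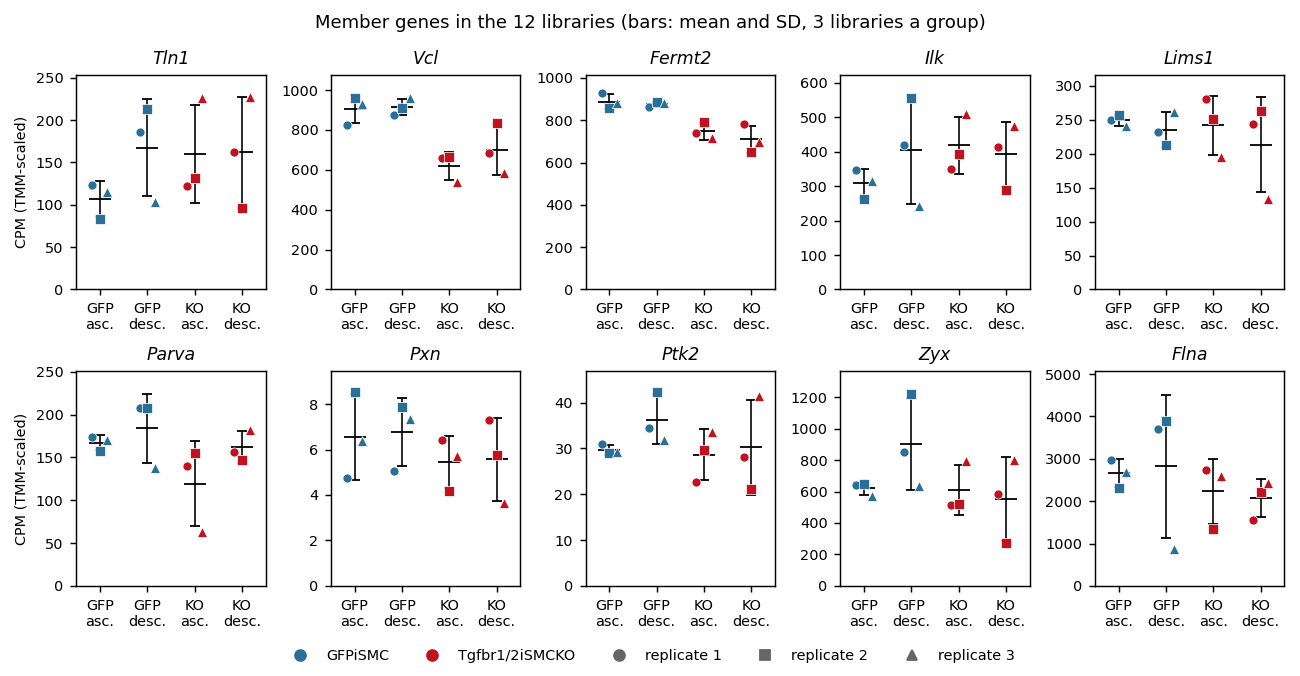
TMM-scaled CPM of each member in every library, by genotype and segment (GFP, GFPiSMC; KO, Tgfbr1/2iSMCKO; asc., ascending aorta and arch; desc., descending thoracic aorta); symbols mark the animal, and black bars give the mean and SD of 3 libraries. *Vcl* and *Fermt2* are lower in Tgfbr1/2iSMCKO libraries of both segments, while *Tln1*, *Ilk*, *Zyx*, and *Flna* spread widely among animals of 1 group.

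*Vcl* encodes vinculin, which strengthens the link between talin and actin when the adhesion is under load. In GFPiSMC SMCs it was at 826, 960.2, and 931 CPM in the ascending/arch and at 875, 912, and 959 CPM in the descending libraries of replicates 1 to 3. In Tgfbr1/2iSMCKO SMCs it was at 662, 662, and 539.6 CPM in the ascending/arch and at 686, 835, and 582 CPM in the descending libraries. In either segment no Tgfbr1/2iSMCKO library reached the lowest GFPiSMC library. Across segments, the descending library of Tgfbr1/2iSMCKO replicate 2 stood above the ascending/arch library of GFPiSMC replicate 1, and 5 of 6 GFPiSMC libraries were above all 6 Tgfbr1/2iSMCKO libraries. The mean fell from 910.4 ± 52.2 to 661 ± 102 CPM (SD, n = 6 libraries), a log2 fold change of -0.46 (SE 0.10, 95% CI -0.68 to -0.25) and an edgeR adjusted p of 0.0164. With the counts of an animal summed (3 against 3), the estimate was -0.45 (SE 0.13) and the adjusted p 0.167. The call was also lost without GFPiSMC replicate 2 (log2 fold change -0.44, adjusted p = 0.0759), without GFPiSMC replicate 3 (-0.44, 0.0929), and without Tgfbr1/2iSMCKO replicate 1 (-0.48, 0.0768).

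*Vcl* (chr14:20929398-21033676, plus strand, GRCm38) ends tail to tail with *Ap3m1*, a subunit gene of the AP-3 vesicle coat on the minus strand, and the annotation gives them 2090 exonic bases in common, 25.5% of the merged exons of *Vcl* and 29.8% of those of *Ap3m1*. The library kit does not mark strand, so reads in the shared stretch cannot be told apart, and how they were assigned to either gene was not tested. *Ap3m1* was at 946 ± 83.0 CPM in GFPiSMC and 686 ± 136 CPM in Tgfbr1/2iSMCKO libraries, with a log2 fold change of -0.46 (SE 0.13, edgeR adjusted p = 0.0528). Its CPM was 0.956 to 1.11 times that of *Vcl* in each of the 12 libraries. Across those libraries, which share their depth and composition between both genes, log2 CPM of the pair had a Pearson r of 0.979 (Spearman rho 0.951) and an r of 0.961 after removal of the genotype means. *Ap3m1* was looked up for this overlap after the values of *Vcl* had been seen.

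*Ilk* has the same kind of neighbor. *Taf10*, a general transcription factor gene on the opposite strand, shares 2106 exonic bases with it, 76.7% of the merged exons of *Ilk*. *Taf10* was at 252 ± 54.1 and 247 ± 27.3 CPM in the 2 genotypes, and log2 CPM of *Ilk* and *Taf10* had an r of 0.92 over the 12 libraries. *Ilk* also shares 355 exonic bases (12.9%) with *Rrp8*, with an r of 0.894. *Tln1* shares 3.67% of its exonic bases with *Creb3*, and log2 CPM of that pair had an r of 0.844. The source of these correlations was not tested. *Zyx* shares 4.38% with *Epha1* (r 0.643). No annotated exon of another gene overlapped the exons of *Fermt2*, *Lims1*, *Parva*, *Pxn*, *Ptk2*, or *Flna*.

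**Figure D2:**
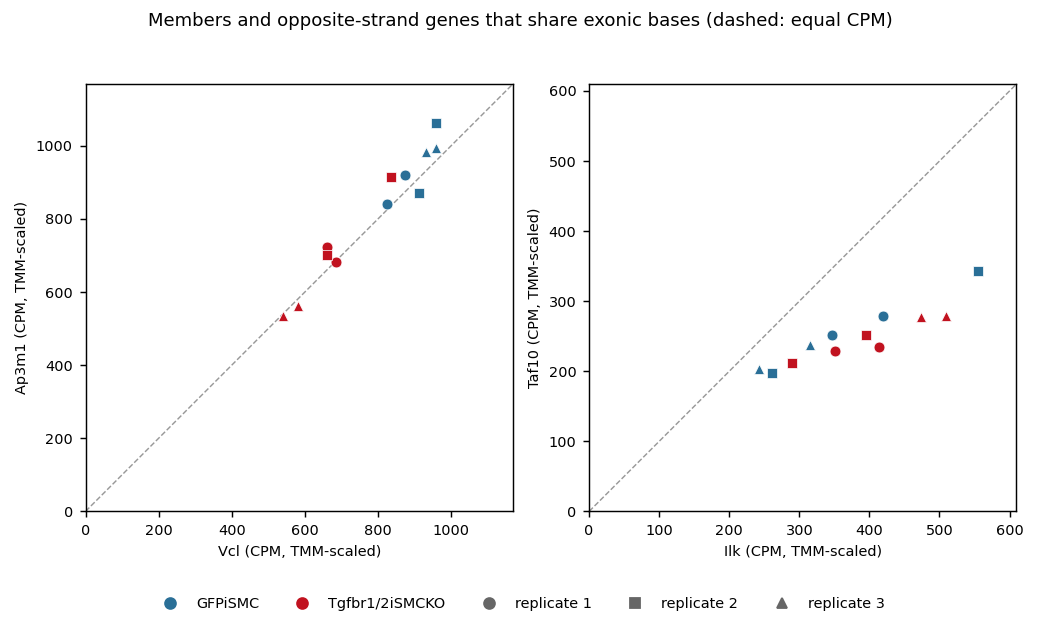
TMM-scaled CPM of *Vcl* against *Ap3m1* (left) and of *Ilk* against *Taf10* (right) in the 12 libraries, colored by genotype and marked by replicate; the dashed line marks equal CPM. *Ap3m1* stays within 0.956 to 1.11 times *Vcl* in every library.

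*Fermt2* encodes kindlin-2, the kindlin of mesenchymal cells, which binds the integrin β tail beside talin and activates the receptor. The gene lies on chr14:45458795-45530118 (minus strand). It was at 927, 858, and 880.0 CPM (ascending/arch) and at 862, 885, and 881 CPM (descending) in GFPiSMC SMCs, compared with 739, 790.5, and 714 CPM and 781, 651, and 697 CPM in Tgfbr1/2iSMCKO SMCs. All 6 Tgfbr1/2iSMCKO libraries lay below all 6 GFPiSMC libraries, which was so for 1 member against 2.89% of the genes tested. The mean was 882 ± 24.5 CPM in GFPiSMC and 729 ± 52.5 CPM in Tgfbr1/2iSMCKO libraries (n = 6 libraries each), a log2 fold change of -0.28 (SE 0.07, 95% CI -0.44 to -0.12). The edgeR adjusted p was 0.0504, just outside the threshold. It was 0.0139 in DESeq2, 0.0388 in limma-voom with animals as random effects, 0.0435 without the segment term, and 0.328 with counts summed per animal. Of 29 alternative fits over libraries (edgeR, DESeq2, or limma-voom), only 5 passed. The log2 fold change ran from -0.31 to -0.15 among them, with an adjusted p of up to 0.336. *Fermt2* was also among the least variable transcripts, with a biological coefficient of variation of 0.149 against a median of 0.409 over all genes and 0.217 over genes averaging 1000 counts or more.

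*Vcl* and *Fermt2* also held the same motif in their promoters, among motifs chosen after the values of the members had been seen. RefSeq promoter windows (GRCm38.p6, from 250 bases before to 50 bases after a transcript start, 300 bases) were at hand for 7 members in 10 windows, and *Pxn*, *Parva*, and *Ptk2* had no entry. Among these, only the windows of *Vcl* and *Fermt2* held a CArG box, the sequence bound by serum response factor, which was found on either strand in 535 of 32851 windows (1.63%). The 250 bases before the start are shown for both genes, 5′ to 3′ on the strand of the gene, with the CArG box in capitals. The box began 227 bases before the RefSeq start in *Vcl* (chr14:20929148-20929397, plus strand) and 204 bases before it in *Fermt2* (chr14:45530066-45530315, minus strand). The span of *Fermt2* given above begins further upstream, at 45530118, so part of the bases shown lies within it.
Vcl: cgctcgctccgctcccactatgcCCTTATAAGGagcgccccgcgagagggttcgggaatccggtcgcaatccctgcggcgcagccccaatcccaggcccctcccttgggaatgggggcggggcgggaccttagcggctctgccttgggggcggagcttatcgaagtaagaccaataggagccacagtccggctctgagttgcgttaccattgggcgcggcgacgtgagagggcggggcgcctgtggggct
Fermt2: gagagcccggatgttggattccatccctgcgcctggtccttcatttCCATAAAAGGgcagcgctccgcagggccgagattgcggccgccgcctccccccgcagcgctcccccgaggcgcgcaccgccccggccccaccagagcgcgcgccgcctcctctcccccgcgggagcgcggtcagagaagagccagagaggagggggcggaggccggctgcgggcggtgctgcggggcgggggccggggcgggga

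A match describes letters and not a bound site. Of 224 tested genes with a CArG box in such a window, 9 (4.02%) were lower in Tgfbr1/2iSMCKO SMCs, compared with 489 of 13660 genes (3.58%) without one. The motif CATTCC, read on both strands, was in the windows of *Vcl* and *Flna* and in 14.7% of all windows. TGANTCA was in that of *Zyx* and in 7.81%. The palindrome bound by Smad proteins, GTCT followed directly by AGAC, was in no member window and in 0.213% of all windows.

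*Tln1* encodes talin 1, the main linker from the integrin tail to actin (chr4:43531519-43562691, minus strand). It was at 124, 83.0, and 115 CPM (ascending/arch) and at 185, 213, and 103 CPM (descending) in GFPiSMC SMCs, and at 122, 132, and 226 CPM and 162, 96.4, and 228 CPM in Tgfbr1/2iSMCKO SMCs. The groups overlapped, and both libraries of Tgfbr1/2iSMCKO replicate 3 stood above every GFPiSMC library. The log2 fold change was 0.27 (SE 0.25, edgeR adjusted p = 0.725) and turned to -0.07 without that animal.

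The complex around integrin-linked kinase did not pass the test in any of its parts. *Ilk* (chr7:105736592-105742925, plus strand), the pseudokinase at its center, was at 347, 261, and 315 CPM (ascending/arch) and 419, 554.5, and 243 CPM (descending) in GFPiSMC SMCs, and at 351, 395, and 509 CPM and 414, 289, and 474 CPM in Tgfbr1/2iSMCKO SMCs. Its ascending/arch libraries were separated, all 3 higher in Tgfbr1/2iSMCKO SMCs, whereas its descending libraries overlapped. *Lims1* (chr10:58323466-58424691, plus strand) encodes PINCH1, the LIM adaptor that holds the complex together, and ranged from 212 to 262 CPM in GFPiSMC and from 133 to 281 CPM in Tgfbr1/2iSMCKO libraries. Its lowest values, 195 and 133 CPM, were both libraries of Tgfbr1/2iSMCKO replicate 3. *Parva* (chr7:112427505-112591692, plus strand) encodes α-parvin, the actin-binding member, and was at 137 to 207 CPM in GFPiSMC libraries and at 140, 155, and 63.1 CPM (ascending/arch) and 157, 147, and 183 CPM (descending) in Tgfbr1/2iSMCKO libraries. The log2 fold changes were 0.20 for *Ilk* (SE 0.20, adjusted p = 0.746), -0.09 for *Lims1* (SE 0.15, 0.870), and -0.33 for *Parva* (SE 0.19, 0.462) in edgeR. Without the *Parva* library at 63.1 CPM that value was -0.19 (adjusted p = 0.596).

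*Pxn* and *Ptk2*, for the scaffold paxillin and focal adhesion kinase, were the members with the fewest counts. They lie on chr5:115506676-115555987 (plus strand) and chr15:73205102-73423280 (minus strand). *Pxn* held 86 to 248 counts per library, or 4.73 to 8.51 CPM in GFPiSMC and 3.64 to 7.29 CPM in Tgfbr1/2iSMCKO SMCs. *Ptk2* was at 29.0 to 42.3 and 21.1 to 41.4 CPM. Neither separated the genotypes, with log2 fold changes of -0.27 (SE 0.24, edgeR adjusted p = 0.685) and -0.16 (SE 0.18, 0.776).

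*Zyx* and *Flna* encode zyxin, which gathers at stressed actin filaments, and filamin A, which crosslinks actin and binds integrin β tails. They lie on chr6:42349630-42360213 (plus strand) and chrX:74223461-74249820 (minus strand). They spread the most among libraries, with a highest over lowest CPM of 4.48 and 4.44, compared with 1.42 for *Fermt2*. *Zyx* was at 643, 647, and 569 CPM (ascending/arch) and at 849.5, 1218, and 637 CPM (descending) in GFPiSMC SMCs, and at 516, 518, and 794 CPM and 587, 272, and 801 CPM in Tgfbr1/2iSMCKO SMCs. *Flna* was at 2980, 2312, and 2691 CPM and at 3707, 3896, and 877 CPM in GFPiSMC SMCs, and at 2746, 1351, and 2593 CPM and 1562, 2224, and 2423 CPM in Tgfbr1/2iSMCKO SMCs. The highest level of both was in the descending library of GFPiSMC replicate 2, which had the fewest sorted cells (9208). The lowest *Flna* was in the descending library of GFPiSMC replicate 3, with 16114 sorted cells, which also had the highest sum of erythroid and platelet markers. The log2 fold changes were -0.36 for *Zyx* (SE 0.25, 95% CI -0.90 to 0.17, edgeR adjusted p = 0.568) and -0.35 for *Flna* (SE 0.29, 95% CI -0.99 to 0.28, 0.674). Leaving out 1 animal or library moved *Zyx* between -0.67 (without Tgfbr1/2iSMCKO replicate 3) and -0.14 (without Tgfbr1/2iSMCKO replicate 2), and *Flna* between -0.57 (without GFPiSMC replicate 3) and -0.19 (without the descending library of GFPiSMC replicate 2).

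Several members moved with the number of sorted cells. In GFPiSMC libraries *Tln1* was at 213 CPM with 9208 cells, 185 with 11088, 124 with 12526, 103 with 16114, 115 with 16292, and 83.0 with 20000. In Tgfbr1/2iSMCKO libraries it was at 226 CPM with 11825 cells, 228 with 12000, 132 with 14360, 162 with 15914, and 122 and 96.4 with 20000. In each genotype the 2 libraries of the fewest cells held the most *Tln1*. With log2 of the cell number as a term beside segment and genotype, *Tln1* fell by 1.24 on the log2 scale per doubling of cells (SE 0.16, edgeR adjusted p = 0.000688), *Zyx* by 1.04 (SE 0.24, 0.00993), *Ilk* by 0.95 (SE 0.13, 0.000899), and *Ptk2* by 0.65 (SE 0.18, 0.0241). *Vcl* rose by 0.35 (SE 0.10, 0.0287). Thus 4 of 10 members were lower with more cells, against 12.7% of genes, and 1 was higher, against 5.3%. *Fermt2* had a slope of -0.06 (95% CI -0.25 to 0.13). The slopes of *Tln1* and *Ilk* passed in each of 6 fits that left out 1 animal and each of 12 that left out 1 library. That of *Zyx* did not without Tgfbr1/2iSMCKO replicate 3 (-0.89, adjusted p = 0.130), and those of *Vcl* and *Ptk2* passed in 1 of the 6 fits each. Without Tgfbr1/2iSMCKO replicate 3 the genes called for cell number dropped from 4010 to 949.

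With the cell number held constant in this way, 4 members passed the genotype test. *Vcl* was lower by a log2 fold change of -0.53 (SE 0.07, edgeR adjusted p = 0.000345) and *Fermt2* by -0.27 (SE 0.06, 0.0120). *Tln1* was higher by 0.44 (SE 0.11, 0.0194) and *Ilk* by 0.37 (SE 0.09, 0.0205). The 2 lower members stand against 5.94% of all genes, and the 2 higher against 6.25%. *Vcl* passed in all 6 fits without an animal (adjusted p 0.000109 to 0.00652). *Fermt2* missed the threshold without GFPiSMC replicate 3 (adjusted p = 0.0874) or Tgfbr1/2iSMCKO replicate 3 (0.0955). *Ilk* passed only without replicate 2 of either genotype and *Tln1* only without Tgfbr1/2iSMCKO replicate 2. This term was added after the data were seen, both libraries of an animal enter it as separate samples, and what the cell number stands for was not tested.

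**Figure D3:**
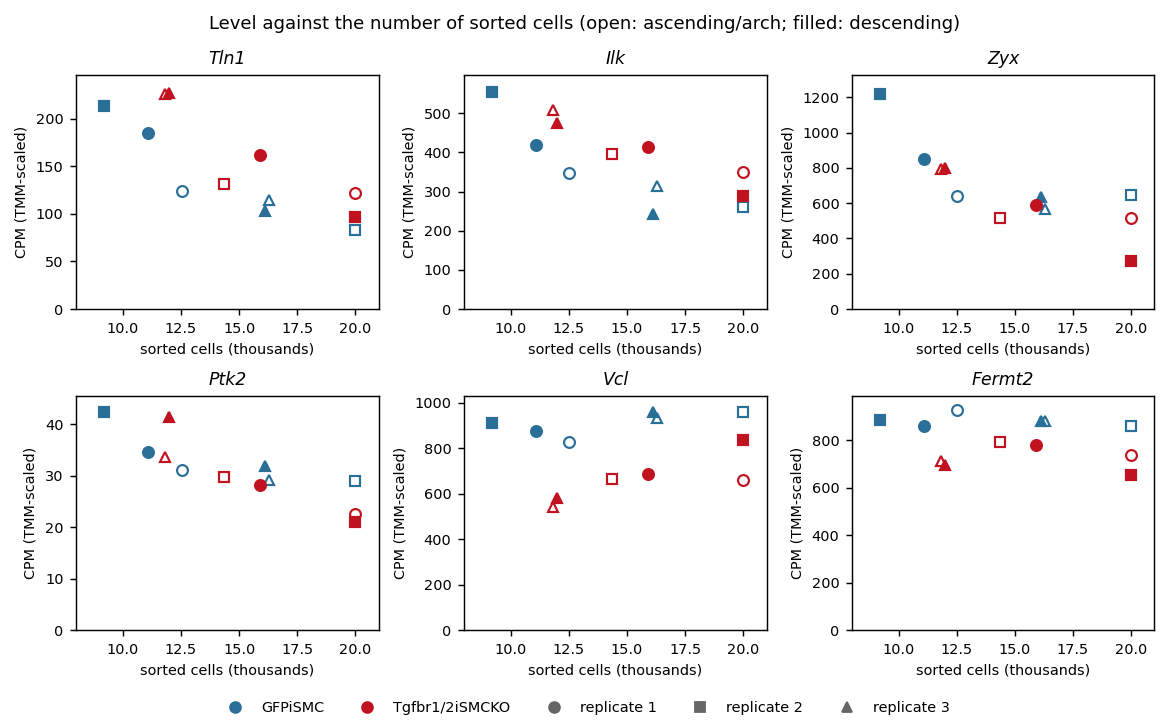
TMM-scaled CPM of 6 members against the number of sorted cells per library, colored by genotype, with open symbols for ascending/arch and filled symbols for descending libraries. *Tln1*, *Ilk*, *Zyx*, and *Ptk2* slope down in both genotypes, whereas *Vcl* and *Fermt2* keep the genotypes apart at similar cell numbers.

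**Figure D4:**
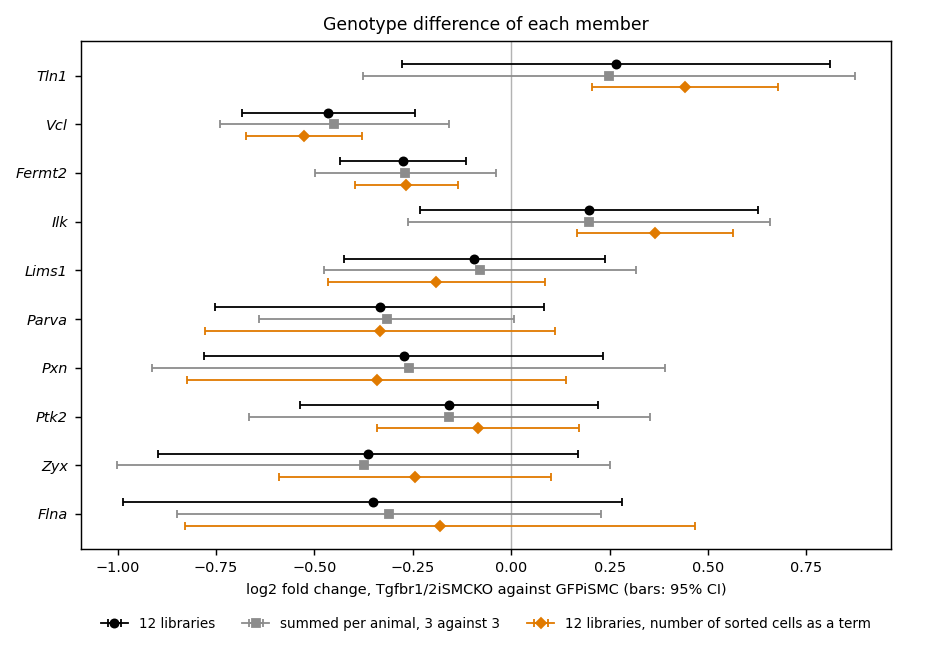
Log2 fold change of each member in Tgfbr1/2iSMCKO against GFPiSMC SMCs with 95% CI, from 12 libraries (black), from counts summed per animal (gray), and from 12 libraries with the number of sorted cells as a term (orange). The CIs of *Vcl* and *Fermt2* lie below 0 in all 3 fits, and those of *Tln1* and *Ilk* lie above 0 only with the cell number as a term.

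With counts summed per animal, 0 members passed in either direction, in edgeR or in DESeq2, and 1.25% of 24275 genes were lower. At an unadjusted p of 0.05 the members were *Vcl* and *Fermt2* (2 of 10 against 11.6% of genes). *Vcl*, *Fermt2*, and *Parva* had all 3 Tgfbr1/2iSMCKO animals below all 3 GFPiSMC animals, against 9.21% of genes. For *Fermt2* the summed libraries were at 890.1, 869, and 877 CPM in GFPiSMC and 748, 708, and 732 CPM in Tgfbr1/2iSMCKO mice.

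Within the ascending/arch, 0 members passed by edgeR or DESeq2 against 1.41% of genes, and 2 (*Vcl* and *Fermt2*) had an unadjusted p under 0.05 against 11.4%. *Vcl*, *Fermt2*, and *Parva* were separated with the Tgfbr1/2iSMCKO libraries lower (10.1% of genes), and *Ilk* with them higher (8.87%). Within the descending thoracic aorta, 0 members passed against 1.72%, and the same 2 genes had an unadjusted p under 0.05 against 10.7%. *Vcl* and *Fermt2* were separated there with the Tgfbr1/2iSMCKO libraries lower (7.75%). The log2 fold change of *Vcl* was -0.54 (SE 0.15, edgeR adjusted p = 0.114) in the ascending/arch and -0.39 (SE 0.15, 0.330) in the descending segment, and that of *Fermt2* was -0.25 (SE 0.11, 0.416) and -0.30 (SE 0.11, 0.292). *Zyx* was at -0.02 (SE 0.34) and -0.70 (SE 0.34), and *Tln1* at 0.58 (SE 0.35) and -0.04 (SE 0.35).

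The genotype effect did not differ between segments for any gene at an adjusted p of 0.05 in edgeR (0% of 22320). In DESeq2 it differed for 2 genes in the negative and 5 in the positive direction among 46758, and for 0 members. An unadjusted p under 0.05 was reached by 2.95% of genes and by 0 members. The largest differences among members were in *Zyx* (-0.68 on the log2 scale, 95% CI -1.71 to 0.35) and *Tln1* (-0.62, 95% CI -1.69 to 0.45), and both intervals include 0.

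Between segments of 1 genotype, 0 members passed in GFPiSMC SMCs against 0.376% of genes and 0 in Tgfbr1/2iSMCKO SMCs against 0.112%, in edgeR as in DESeq2. An unadjusted p under 0.05 was reached by 0 members in each, against 5.98% and 3.68% of genes. *Ptk2* was the 1 member with all 3 descending libraries of GFPiSMC mice above all 3 ascending/arch libraries, against 5.19% of genes. *Tln1* differed by 0.64 (SE 0.35, edgeR adjusted p = 0.910) and *Zyx* by 0.54 (SE 0.34, 0.910) in GFPiSMC mice, whose descending libraries had 11088, 9208, and 16114 sorted cells and whose ascending/arch libraries had 12526, 20000, and 16292.

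Per length of the merged exons, the members spanned a wide range of levels. Over the 12 libraries, *Flna* was at 260.3 ± 94.4 CPM per kb, *Fermt2* at 155 ± 17.2, *Ilk* at 139 ± 35.8, *Zyx* at 124 ± 43.0, and *Vcl* at 95.9 ± 18.5 (mean ± SD). The ranges of these 5 overlapped from each to the next. *Lims1* (48.1 ± 8.07) lay below every *Vcl* value, and *Parva* (15.6 ± 3.72) and *Tln1* (15.2 ± 5.31) overlapped each other and lay below every *Lims1* value. *Ptk2* (2.64 ± 0.536) and *Pxn* (0.742 ± 0.184) each stood below all members before them. The order was the same with the length of the longest protein-coding transcript in place of merged exons.

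Members with a closely related gene were compared with it on the same scale. None of 14 paralogues passed the genotype test in edgeR or DESeq2 over the 12 libraries, and their median log2 fold change was 0.02. *Pxn* was at 0.812 CPM per kb in GFPiSMC SMCs, whereas *Tgfb1i1*, which encodes the paxillin relative Hic-5, was at 148, and *Lims2*, for PINCH2, was at 236 beside 49.6 for *Lims1*. *Lpp*, a zyxin relative, was at 150 CPM per kb beside 141 for *Zyx*. In the talin, kindlin, parvin, and focal adhesion kinase families the member was more abundant than the relatives named here. *Tln2* was at 0.36 CPM per kb, *Fermt1* at 0.111, *Fermt3* at 0.0945, *Parvb* at 0.0623, and *Ptk2b* at 0.0807. *Tgfb1i1* was at 829 ± 43.9 and 860.1 ± 66.4 CPM in GFPiSMC and Tgfbr1/2iSMCKO libraries, and the 95% CI of its log2 fold change was -0.11 to 0.21. That of *Lpp* was -0.23 to 0.06. These paralogues were singled out after their values had been seen.

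**Figure D5:**
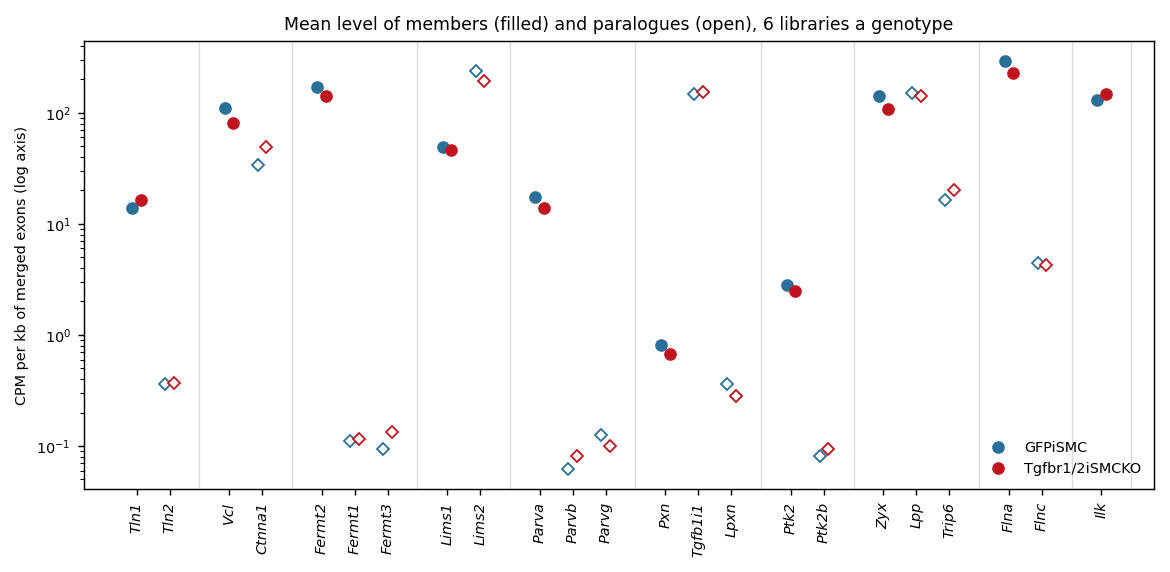
Mean level of the members (filled circles) and of paralogues (open diamonds) as CPM per kb of merged exons, on a log axis, over 6 libraries per genotype. *Tgfb1i1*, *Lims2*, and *Lpp* reach 148, 236, and 150 CPM per kb in GFPiSMC SMCs, while the paralogues of *Tln1*, *Fermt2*, *Parva*, and *Ptk2* stay below 0.4.

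Of 39 further focal adhesion genes, 5 were lower in Tgfbr1/2iSMCKO SMCs in edgeR, 0 were higher, and 34 did not pass, compared with 3.23% lower and 1.8% higher among all genes tested. The median log2 fold change was -0.23, against 0.04 over all genes. DESeq2 gave 9 lower and 2 higher, with 2.33% of 46758 genes lower. *Pdlim1* and *Pdlim5*, for PDZ and LIM domain proteins of actin filaments, went from 385 ± 62.4 to 119 ± 18.1 CPM (a log2 fold change of -1.70 with SE 0.14 and edgeR adjusted p = 5.88e-06) and from 427 ± 36.4 to 215 ± 18.5 CPM (-0.99, SE 0.08, 7.63e-06). *Nedd9*, for a docking protein of focal adhesion kinase, went from 142 ± 26.0 to 51.2 ± 17.9 CPM (-1.47, SE 0.23, 0.00183). *Fblim1*, for migfilin, which binds filamin and kindlin-2, went from 1970 ± 389 to 1139 ± 302 CPM (-0.79, SE 0.18, 0.0208), and *Palld*, for the actin crosslinker palladin, from 174 ± 72.2 to 94.1 ± 16.3 CPM (-0.81, SE 0.20, 0.0319). With the libraries of an animal summed, *Pdlim1*, *Pdlim5*, and *Nedd9* passed as well (adjusted p = 0.00230, 0.00528, and 0.0437, edgeR). *Enah*, for an actin filament elongation factor of the Ena/VASP family, also passed on these sums (log2 fold change -0.86, adjusted p = 0.0277). Over the 12 libraries it was at -0.67 (adjusted p = 0.252). By segment, *Enah* was at 0.13 (edgeR adjusted p = 0.919) in the ascending/arch and at -1.47 (0.00889) in the descending segment. The difference of the genotype effect between segments passed for 0 of the 39 genes in edgeR.

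Of 19 integrin genes, 18 were tested, and 3 β subunits were lower, 0 subunits were higher, and 15 did not pass (DESeq2, 5 lower and 0 higher). Over all genes tested, 3.23% were lower and 1.8% higher. *Itgb1*, the partner of most α chains, went from 2038 ± 115 to 1465 ± 122 CPM (a log2 fold change of -0.48 with SE 0.07 and edgeR adjusted p = 0.00150). *Itgb5* went from 292 ± 91.4 to 138 ± 32.4 CPM (-1.07, SE 0.20, 0.00609) and *Itgb3* from 113 ± 21.4 to 61.0 ± 14.7 CPM (-0.88, SE 0.17, 0.00684). On summed counts the adjusted p of these 3 was 0.0516, 0.0538, and 0.118, and *Itgb8* alone among integrins passed (log2 fold change -1.06, adjusted p = 0.0472). By segment, *Itgb8* was at -1.50 (edgeR adjusted p = 0.0379) in the ascending/arch and at 0.007 in the descending segment, where it did not pass. The difference of the genotype effect between segments passed for 0 of the 18 tested integrins in edgeR. *Itga8*, the most abundant integrin transcript here, went from 5144 ± 467 to 3955 ± 743 CPM and did not pass over the 12 libraries (-0.38, SE 0.12, edgeR adjusted p = 0.0951). The study, with another test and scaling, reported *Itga8* and *Itgb1* transcripts as decreased, and lower surface intensity of both proteins by flow cytometry. The 12-library change of *Vcl* (-0.46) was close in size to that of *Itgb1*, and the difference between them was not tested.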

How the data were processed

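The authors aligned reads with HISAT2 to mm10 (GRCm38) and quantified genes with StringTie, per the labels, and deposited whole-number counts of 52636 genes in 12 libraries without normalization between libraries. StringTie estimates coverage per transcript, from which such counts are derived. Counts of 2 (32279) exceeded counts of 1 (22574). Symbols and exons came from GENCODE annotation of the same build, and 52489 genes had a symbol. Merged exons give the length of a gene.

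Counts were analysed with edgeR 4.0.16 (limma 3.58.1, R 4.3.3): filterByExpr on the 4 groups, TMM factors, quasi-likelihood tests, and Benjamini-Hochberg adjustment over all 22320 genes tested (24275 for summed counts). A gene counted as lower or higher at an adjusted p under 0.05. DESeq2 1.42.0 was an alternative. Standard errors came from each fold change and its F statistic. The steps were tested on simulated data. An exact two-sided permutation test of 3 animals against 3 cannot go below 0.1. Libraries of 1 genotype that carry equal numbers in their titles were read as both segments of 1 animal. After removal of group means, those libraries correlated at 0.118, -0.183, and 0.0334 (GFPiSMC) and 0.0480, 0.335, and 0.599 (Tgfbr1/2iSMCKO) across 11150 genes.

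The members, gene lists, and tests were chosen with earlier results of these data known. All members were described. Genes of the marker, further focal adhesion, and integrin lists were named where they passed over the 12 libraries, at most 8 per list. *Enah* and *Itgb8* were added since they passed on summed counts, and *Itga8* since the study reported it as decreased. *Pecam1*, paralogues, and genes overlapping a member were named outside this rule. The values of 1 paralogue are not reported here. Figures were drawn with matplotlib.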

Additional observations from a re-analysis of the deposited data

Results flagged for a closer look

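*Parva* in the ascending/arch library of Tgfbr1/2iSMCKO replicate 3 was at 63.08 CPM, and the next of the 6 Tgfbr1/2iSMCKO libraries was at 139.7 CPM. The gap took 0.642 of the range of the 6 libraries, above Dixon's critical value for 6 samples. The descending library of the same animal was the highest of the 6, at 183 CPM. Of 20 groups examined (10 members in 2 genotypes), 1 stood out in this way, and chance alone marks about 1 in 20.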

How the results depend on the processing

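The number of members lower in Tgfbr1/2iSMCKO SMCs over 12 libraries (1, *Vcl*) was 0 with library size only and with the filter at a mean of 50 counts, and 2 with DESeq2 (with or without the segment term), limma-voom with animals as random effects, no segment term, or the number of sorted cells as a term. Leaving out an animal or a library gave 0 to 1. The number of higher members was 0, and 2 with the number of sorted cells as a term. In edgeR without TMM factors (library size only) the median log2 fold change of all genes moved from 0.04 to 0.16, and the split of calls moved from 721 lower and 402 higher to 505 and 699. Signs turned for *Lims1* over 12 libraries (0.0332 with library size only, and -0.206 to 0.0862 with an animal or library left out), for *Tln1* over 12 libraries (-0.0693 to 0.467 with an animal or library left out), for *Zyx* in the ascending/arch (0.0731 with library size only, -0.268 to 0.0876 with an animal left out), for *Flna* in the ascending/arch (-0.426 to 0.00897 with an animal left out), and for *Tln1* in the descending segment (0.11 with library size only, 0.0027 with the filter at a mean of 50 counts, -0.391 to 0.222 with an animal left out). None of these values passed the test. Counts of members called were 0 under every alternative with summed counts, within a segment, between segments, and for the difference between segments. The counts of the other lists over 12 libraries moved more. Over 29 alternatives, 3 to 10 further focal adhesion genes were lower and 0 to 3 higher. For integrins, 1 to 6 were lower and 0 higher, and for paralogues 0 were lower and 0 to 1 higher.

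The replicate number was read as marking an animal within a genotype only. Same-numbered libraries of the 2 genotypes had correlations from -0.462 to 0.172. These rest on deviations from means of 3 libraries and cannot show whether such libraries were handled together, which was not tested. With the number as a replicate block, 1 member was lower and 0 were higher over 12 libraries (*Vcl* -0.47, adjusted p = 0.0187, edgeR), and calls over all genes with summed counts dropped from 304 lower and 147 higher to 79 and 20. With the animal as a block, comparisons of segments called 0 members. The 3 animals per genotype limit what these libraries can show for *Zyx*, *Flna*, *Tln1*, and *Ilk*. A further limit is the number of sorted cells, with which *Tln1*, *Ilk*, *Zyx*, *Ptk2*, and *Vcl* moved. The slope of *Flna* on the cell number did not pass (-0.65 per doubling, SE 0.41, edgeR adjusted p = 0.303). Exons of *Vcl* and *Ilk* overlap an opposite-strand gene, and the assignment of shared reads was not tested.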
